A study of Homo sapiens with 2 samples.

Results

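Cytosine methylation was examined at 9 genes of the methionine cycle and the folate-dependent one-carbon pathway that feeds it: MAT1A, MAT2A, GNMT, AHCY, MTR, BHMT, CBS, SHMT2 and MTHFD2. Genomic DNA came from SH-SY5Y, a human neuroblastoma cell line, exposed to Mdivi-1, a compound used to inhibit mitochondrial fission, or to the solvent DMSO. The dose, the length of exposure and the number of cultures are not given in the sources used here, and each condition is 1 library. DNA was enriched with a methyl-capture kit, converted with bisulfite and sequenced, so that each read reports a CpG as methylated or not. A CpG was taken as a member's when the deposited annotation placed it in that gene or in its promoter, and when both libraries covered it with at least 10 reads. Of 1233 annotated positions, 1150 CpGs met this, among 2515936 CpGs kept in the whole table, and the cut depends on coverage and not on methylation.

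In the methionine cycle, methionine adenosyltransferases (MAT1A and MAT2A encode their catalytic subunits) join methionine to ATP and make S-adenosylmethionine, the methyl donor of DNA methyltransferases. Each methyl transfer leaves S-adenosylhomocysteine, which AHCY splits into adenosine and homocysteine. Homocysteine is methylated again by MTR, which takes the methyl group from folate, or by BHMT, which takes it from betaine, or it leaves the cycle through CBS towards cysteine. GNMT spends surplus S-adenosylmethionine on glycine, and SHMT2 and MTHFD2 work in mitochondria, where serine is broken down to charge folate with one-carbon units. MAT1A, BHMT and GNMT are known mainly as liver enzymes, whereas MAT2A is the form that most other tissues use, and MTHFD2 is known for its high expression in embryonic and tumour cells.

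By their mean level the promoters fell into a low, a middle and a high set, and the same genes were in each set in both libraries. MAT2A, SHMT2 and MTHFD2 were under 10% methylated in both. GNMT and BHMT were over 80% methylated in both, and AHCY, MTR, MAT1A and CBS lay between. The means of AHCY, MTR and CBS combine nearly unmethylated island CpGs with methylated or partly methylated CpGs elsewhere in the annotated promoter. In the Mdivi-1 library, 38 promoter island CpGs of AHCY averaged 1.48%, 48 of CBS 1.13% and 19 of MTR 0.932%. In the DMSO library the same CpGs averaged 1.42% at AHCY, 0.606% at CBS and 1.29% at MTR. An upstream start of AHCY stood at 53.8% in the Mdivi-1 library and 46.3% in the DMSO library as a mean over 31 CpGs. No single CpG of the 9 genes passed the test after adjustment.

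The sequences around 5 annotated starts are shown because they carry the contrast between unmethylated, partly methylated and methylated starts. They are RefSeq sequences of build GRCh38.p14, from 250 bases before to 50 bases after a start, written 5′ to 3′ on the gene's strand. The CpGs whose methylation was measured are in capitals. The measurements are on hg19, and the CpGs were placed on these sequences by the spacing between neighbouring CpGs alone, with no conversion of coordinates. Promoter sequences were found for 8 of the 9 genes, 13 in all, and SHMT2 had none. AHCY has 3 of these sequences, and CpGs could not be placed on the third (chr20:34302941-34303240), where 2 offsets matched almost equally well. Of the 2 AHCY starts that were placed, the one in the annotated CpG island is called the main start here. The other is called the upstream start.
AHCY upstream start, chr20:34311753-34312052, minus strand: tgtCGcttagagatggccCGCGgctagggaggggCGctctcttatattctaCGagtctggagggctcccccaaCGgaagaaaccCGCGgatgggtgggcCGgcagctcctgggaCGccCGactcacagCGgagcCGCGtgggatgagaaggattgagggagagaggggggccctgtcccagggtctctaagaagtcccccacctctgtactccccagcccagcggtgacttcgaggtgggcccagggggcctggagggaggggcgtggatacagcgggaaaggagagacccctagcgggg
AHCY main start, chr20:34303306-34303605, minus strand: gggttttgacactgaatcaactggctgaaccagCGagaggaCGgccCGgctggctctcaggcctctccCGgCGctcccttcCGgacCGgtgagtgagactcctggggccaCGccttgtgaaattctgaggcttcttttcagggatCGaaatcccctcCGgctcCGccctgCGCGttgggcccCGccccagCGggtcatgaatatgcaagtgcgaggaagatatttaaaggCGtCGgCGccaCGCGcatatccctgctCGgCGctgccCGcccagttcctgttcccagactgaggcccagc
MAT2A, chr2:85538918-85539217, plus strand: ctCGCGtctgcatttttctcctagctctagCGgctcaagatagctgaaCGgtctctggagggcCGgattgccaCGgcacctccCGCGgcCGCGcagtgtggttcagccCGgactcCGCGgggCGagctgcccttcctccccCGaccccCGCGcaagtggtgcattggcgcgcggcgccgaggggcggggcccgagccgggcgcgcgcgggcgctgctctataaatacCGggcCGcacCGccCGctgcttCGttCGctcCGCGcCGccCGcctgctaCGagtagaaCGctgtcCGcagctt
BHMT, chr5:79111559-79111858, plus strand: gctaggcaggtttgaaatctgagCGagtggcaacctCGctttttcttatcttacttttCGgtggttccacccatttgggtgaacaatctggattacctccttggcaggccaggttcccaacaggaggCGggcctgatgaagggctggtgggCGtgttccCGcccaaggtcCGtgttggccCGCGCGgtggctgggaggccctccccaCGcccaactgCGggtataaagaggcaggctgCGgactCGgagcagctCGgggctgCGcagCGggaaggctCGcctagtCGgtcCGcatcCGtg
GNMT, chr6:42960504-42960803, plus strand: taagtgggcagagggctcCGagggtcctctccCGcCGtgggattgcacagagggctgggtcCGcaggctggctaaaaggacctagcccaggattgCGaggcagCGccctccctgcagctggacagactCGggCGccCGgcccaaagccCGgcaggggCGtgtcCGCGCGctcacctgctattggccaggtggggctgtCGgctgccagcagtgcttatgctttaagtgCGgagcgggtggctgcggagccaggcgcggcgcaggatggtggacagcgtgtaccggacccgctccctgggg

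At the AHCY upstream start, 14 of the 19 CpGs in the window shown were measured, and they averaged 70.7% in the Mdivi-1 library and 59.3% in the DMSO library. At the AHCY main start, 23 of 24 CpGs were measured, with 1.49% in the Mdivi-1 library and 1.58% in the DMSO library. The 2 placed starts of this gene thus differed far more from each other than either did between the libraries. The MAT2A window, the richest in CpGs of the 5 with 43, had 30 measured CpGs at 1.53% in the Mdivi-1 library and 1.25% in the DMSO library. The window at BHMT had all 21 CpGs measured, at 96.6% in the Mdivi-1 library and 94.98% in the DMSO library. GNMT had 16 of 24 CpGs measured, at 94.1% in the Mdivi-1 library and 96.7% in the DMSO library. Dense CpGs were therefore unmethylated at MAT2A and methylated at BHMT and GNMT in these cells, although the median RefSeq promoter of this length holds 14. The GC box GGGCGG, searched on both strands, was in the AHCY main start window 3 times, in the MAT2A window 3 times and in the BHMT window once, and these letters were in neither the AHCY upstream nor the GNMT window. It occurs in 44.95% of 35116 RefSeq promoters of the same length. The letters TATAAA were in the MAT2A and BHMT windows, and are in 11.5% of all promoters. A match describes the letters and is not a measured binding site.

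**Figure D1:**
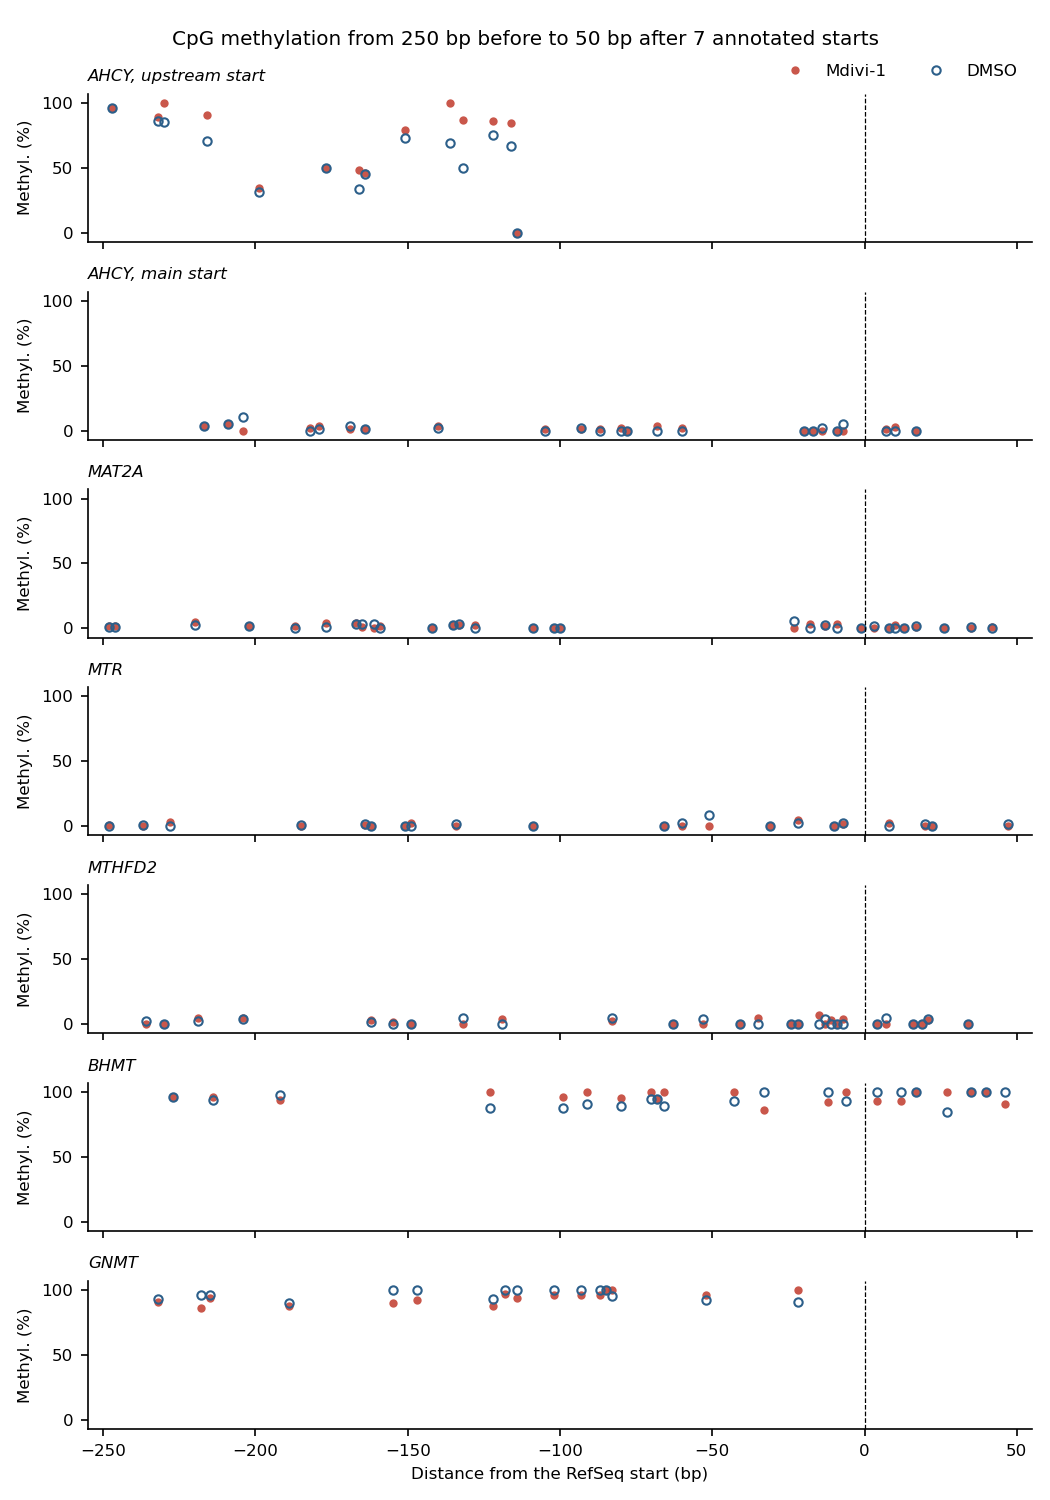
Methylation in percent of each measured CpG (vertical axis) against its distance in bases from the RefSeq start (horizontal axis) at 7 starts, with filled red points for the Mdivi-1 library and open blue points for the DMSO library. The AHCY main start, MAT2A, MTR and MTHFD2 lie near 0% in both libraries, BHMT and GNMT lie above 80%, and the AHCY upstream start is spread between 0% and 100%.

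Coverage of the 1150 CpGs averaged 50.3 reads in the Mdivi-1 library and 42.0 reads in the DMSO library, close to the 48.9 and 39.5 reads of all CpGs in the Mdivi-1 and DMSO libraries. All CpGs of the table averaged 43.1% in the Mdivi-1 library and 42.7% in the DMSO library, a difference of 0.460 percentage points. The member CpGs averaged 44.2% in the Mdivi-1 library and 43.7% in the DMSO library, a difference of 0.454 points, so their mean difference was that of the whole table. Of them 489 were higher, 398 lower and 263 equal in the Mdivi-1 library. Most were near an end of the scale: over both libraries 565 averaged under 10%, 382 over 90% and 203 between. Errors below are 1 SD of binomial counting error. Each is given first with CpGs taken as independent and then with all reads taken to cover all CpGs of a region, since neighbouring CpGs share reads to a degree that the deposited table does not record. The second error is computed from the mean level of the region. It is therefore an upper value, and is too wide where nearly unmethylated and methylated CpGs are mixed. Errors, intervals and limits cover counting error only, because no molecular identifiers are named in the sources used here. With 1 library per condition, no difference has a replicate check.

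A two-sided Fisher exact test on methylated and unmethylated reads was run at every CpG of the table, with Benjamini-Hochberg adjustment over all of them. It compares the reads of 2 libraries and not the conditions. With an adjusted p under 0.05 and a difference of at least 20 points as a call, 0 of the 1150 member CpGs were called, against 0.000636% of all CpGs. At an unadjusted p under 0.05 there were 22 member CpGs, which is 1.91%, against 2.02% of all CpGs. Of these 22, 12 were higher and 10 lower in the Mdivi-1 library. CBS had 7, AHCY and MTR had 4 each, BHMT 3, MAT2A 2, MAT1A and GNMT 1 each, and SHMT2 and MTHFD2 none. The share among the members was thus near the share in the table. A difference of 20 points or more was seen at 17 member CpGs, or 1.48%, against 2.66% of all CpGs. Of the 17, 10 were higher and 7 lower in the Mdivi-1 library.

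**Figure D2:**
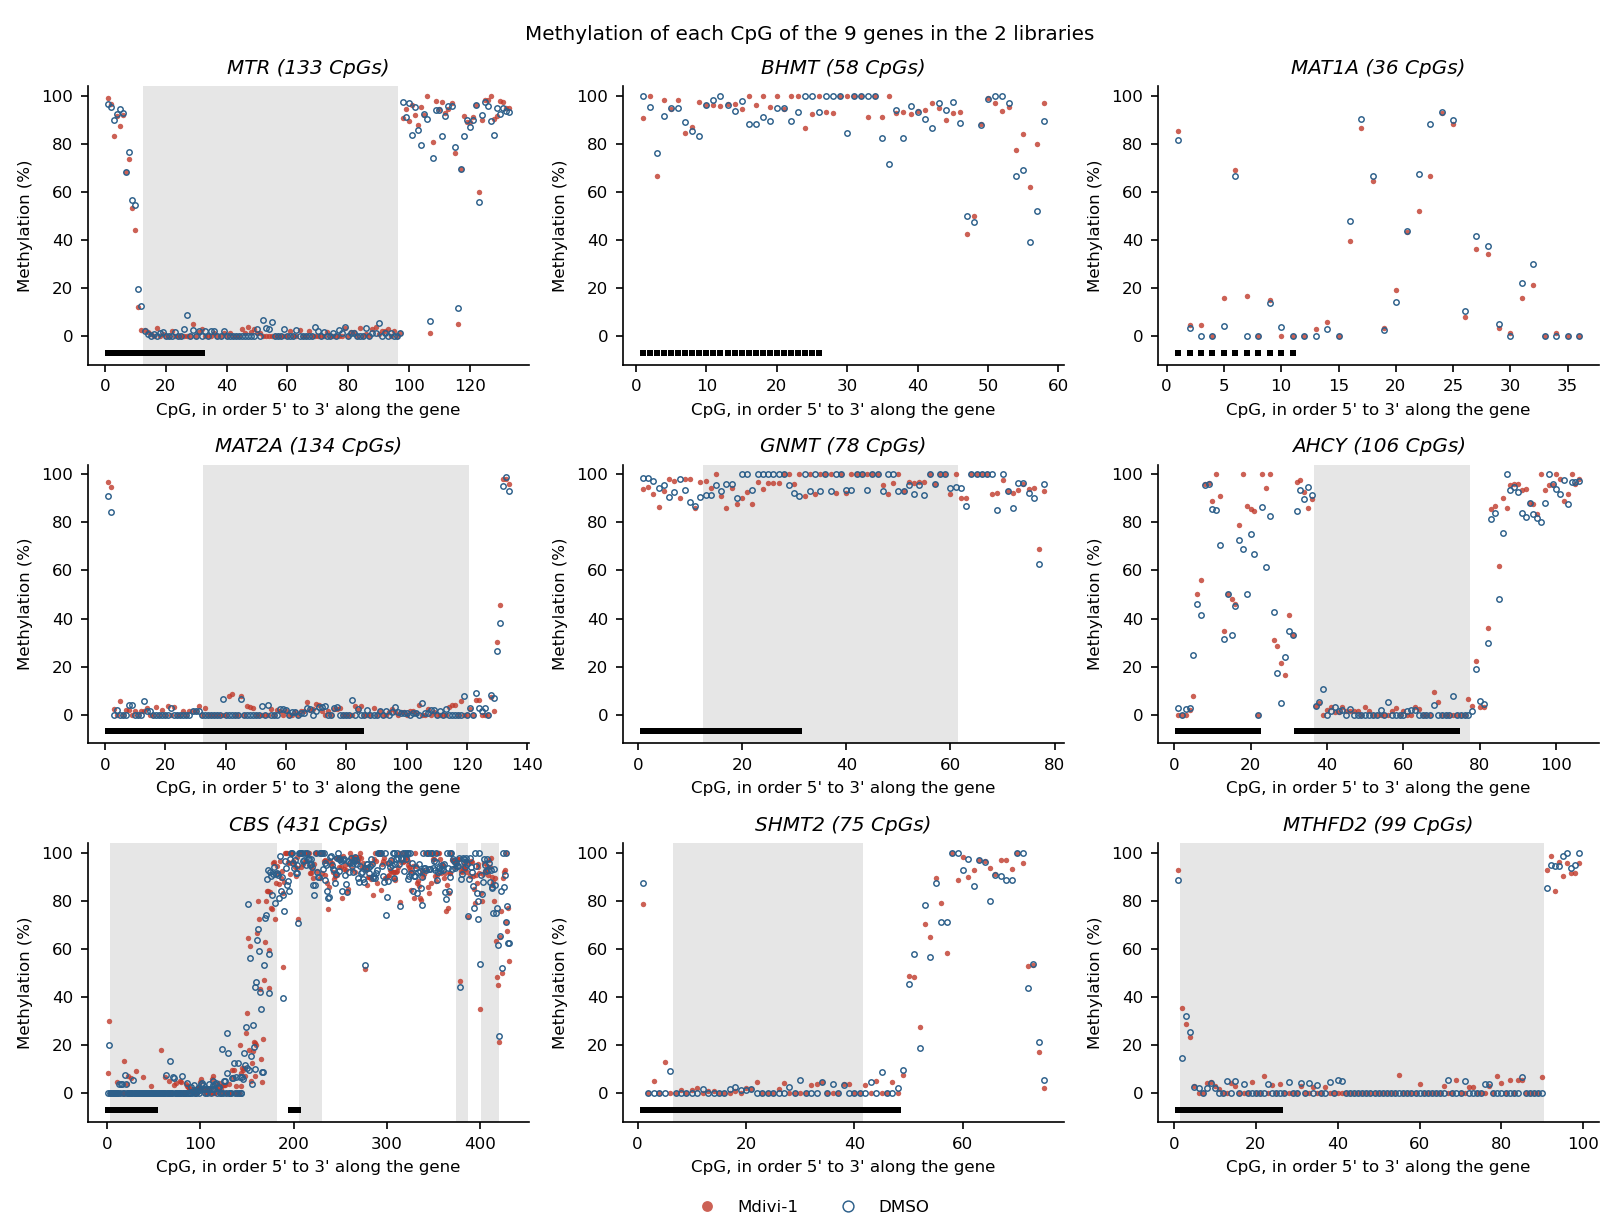
Methylation in percent (vertical axis) of every kept CpG of the 9 genes, in order from the 5′ to the 3′ end of the gene (horizontal axis), with filled red points for the Mdivi-1 library and open blue points for the DMSO library. Grey marks annotated CpG islands and black squares mark promoter CpGs. The 2 libraries follow the same profile in each gene, with islands near 0% in MAT2A, AHCY, MTR, SHMT2 and MTHFD2, a methylated edge in the first CBS island, and an island at over 90% in GNMT.

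The genes that make S-adenosylmethionine had different promoters. MAT2A lies on chromosome 2, and its CpGs between positions 85764308 and 85769736 of hg19 include an island of 1288 bp. This island averaged 1.41% in the Mdivi-1 library and 1.12% in the DMSO library over 88 CpGs. The 85 promoter CpGs stood at 3.73% in the Mdivi-1 library and 3.11% in the DMSO library, a difference of 0.626 points (errors 0.295 and 3.62). All of these 85 also carry the name PARTICL, a noncoding RNA that shares the promoter region, so the values belong to both. Of the 49 CpGs of MAT2A outside the promoter, 45 also carry the name of another gene, PARTICL in the case of 85766429 below. These 49 CpGs of MAT2A stood at 8.79% in the Mdivi-1 library and 8.61% in the DMSO library. Its smallest p was at an exonic island CpG (85766429), with 0 of 114 reads methylated in the Mdivi-1 library, which allows up to 2.63%, and 7 of 147 in the DMSO library, or 4.76% with a 95% Wilson interval of 2.33 to 9.50 (Fisher's exact p = 0.0196, adjusted p = 1).

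MAT1A, on chromosome 10, has no annotated CpG island, and 36 of its CpGs were measured between 82033455 and 82050794. Its RefSeq window holds only 3 CpGs. The 11 promoter CpGs averaged 19.1% in the Mdivi-1 library and 15.7% in the DMSO library, 3.43 points apart (errors 2.20 and 8.78), with 7 higher and 1 lower in the Mdivi-1 library. With a minimum of 20 reads, which 8 of the 11 met, the difference was 0.837 points, and with reads pooled 2.09 points. The mean over the 11 hides a wide range. Their median was 4.44% in the Mdivi-1 library and 3.33% in the DMSO library. Single CpGs ran from 0% to 85.1% in the Mdivi-1 library and from 0% to 81.6% in the DMSO library. In the last exons and introns of MAT1A (82035561 to 82036213), 15 CpGs averaged 32.2% in the Mdivi-1 library and 36.2% in the DMSO library, a difference of -4.04 points (errors 1.86 and 8.66). There 11 CpGs were lower and 3 higher in the Mdivi-1 library. The exonic CpG at 82036180 had 36 of 54 reads methylated in the Mdivi-1 library (66.7%, 95% Wilson interval 53.4 to 77.8) and 37 of 42 in the DMSO library (88.1%, 75.0 to 94.8), with an exact p of 0.0168 and an adjusted p of 1.

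GNMT, the glycine methyltransferase, lies on chromosome 6 and was methylated throughout, with 72 of its 78 CpGs above 90% over both libraries. Its island of 592 bp held 49 measured CpGs, at 96.2% in the Mdivi-1 library and 96.4% in the DMSO library. It was the one promoter island of the 9 genes that was methylated along its measured length. The 31 promoter CpGs averaged 94.2% in the Mdivi-1 library and 95.1% in the DMSO library, a difference of -0.909 points (errors 0.893 and 4.74). Of them, 11 were higher and 19 lower in the Mdivi-1 library, and the CpG of smallest p, given below, was among the higher. These CpGs are annotated within an intron of the readthrough gene CNPY3-GNMT, which starts upstream. At 42928080 the Mdivi-1 library had 101 of 103 reads methylated (98.1%, 95% Wilson interval 93.2 to 99.5) and the DMSO library 67 of 74 (90.5%, 81.7 to 95.3), with an exact p of 0.0357 and an adjusted p of 1.

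AHCY is the hydrolase that clears S-adenosylhomocysteine. Its 106 CpGs on chromosome 20 averaged 42.1% in the Mdivi-1 library and 38.8% in the DMSO library, 3.28 points apart (errors 0.789 and 10.99). The difference was 1.76 points with a minimum of 20 reads and 2.08 points with reads pooled. Of the 106, 62 were higher and 25 lower in the Mdivi-1 library. The difference was unevenly spread along the gene. The 38 promoter CpGs around the main start (32890966 to 32891378), inside an island of 819 bp, were at 1.48% in the Mdivi-1 library and 1.42% in the DMSO library. Within this stretch, 1 CpG at 32891365 had 0 of 87 reads methylated in the Mdivi-1 library, which allows up to 3.45%, and 6 of 57 in the DMSO library, or 10.5% (95% Wilson interval 4.91 to 21.1). This was the smallest p of all member CpGs (Fisher's exact p = 0.00326, adjusted p = 1).

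The upstream start of AHCY lies outside any annotated island. Over its 31 CpGs (32899413 to 32900615) the difference was 7.58 points (errors 2.27 and 14.7), with 21 CpGs higher and 6 lower in the Mdivi-1 library. The 25 CpGs nearest the start (32899413 to 32899919) averaged 64.4% in the Mdivi-1 library and 54.2% in the DMSO library, a difference of 10.2 points (errors 2.63 and 15.8), and 20 of them were higher and 2 lower in the Mdivi-1 library. The 4 CpGs farthest upstream were near 0% in both libraries. Coverage was thin over the 25 CpGs, at 18.8 reads in the Mdivi-1 library and 19.96 reads in the DMSO library. The upstream CpG at 32899744 had 18 of 18 reads methylated in the Mdivi-1 library (95% Wilson interval 82.4 to 100) and 11 of 16 in the DMSO library, or 68.8% (44.4 to 85.8), with an exact p of 0.0157 and an adjusted p of 1. At 32899502, in the 5′ UTR of the upstream transcript, 16 of 17 reads were methylated in the Mdivi-1 library (94.1%, 73.0 to 99.0) and 16 of 26 in the DMSO library (61.5%, 42.5 to 77.6), with an exact p of 0.0295. A minimum of 20 reads in each library left 8 CpGs of these 25 and a difference of 6.13 points, and pooling reads over the 25 gave 12.4 points. Of the 31 CpGs, 12 met this minimum, with a difference of 3.58 points. Pooling reads over all 31, which weights the stretch to the deep unmethylated CpGs farthest upstream, gave 0.903 points.

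Downstream of the AHCY island, methylation climbed again over a shore in the 5′ UTR. The 9 CpGs there (32890184 to 32890473) averaged 43.7% in the Mdivi-1 library and 38.8% in the DMSO library, 4.88 points apart (errors 2.02 and 8.17), with 7 higher and 2 lower in the Mdivi-1 library. The 41 CpGs of AHCY outside its promoters averaged 66.9% in the Mdivi-1 library and 62.5% in the DMSO library, 4.42 points apart. Of these 41, 9 lie in the 5′ UTR at the upstream start (32899413 to 32899520) and were 8.79 points apart. They are also part of the upstream stretch given above, so the values overlap. The central 90% of all gene bodies ran between -2.21 and 3.36 points, and AHCY, BHMT (3.56 points) and MAT1A (-2.75 points) were the members outside it. With a minimum of 20 reads, AHCY at 2.998 points and BHMT at 1.58 points were within these limits, and MAT1A at -2.98 points was outside them. With reads pooled over CpGs the difference was 7.04 points at AHCY, 2.57 points at BHMT, -3.89 points at MAT1A and -6.05 points at MTHFD2. Of these, only BHMT was within the limits, which were not recomputed for pooled reads.

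**Figure D3:**
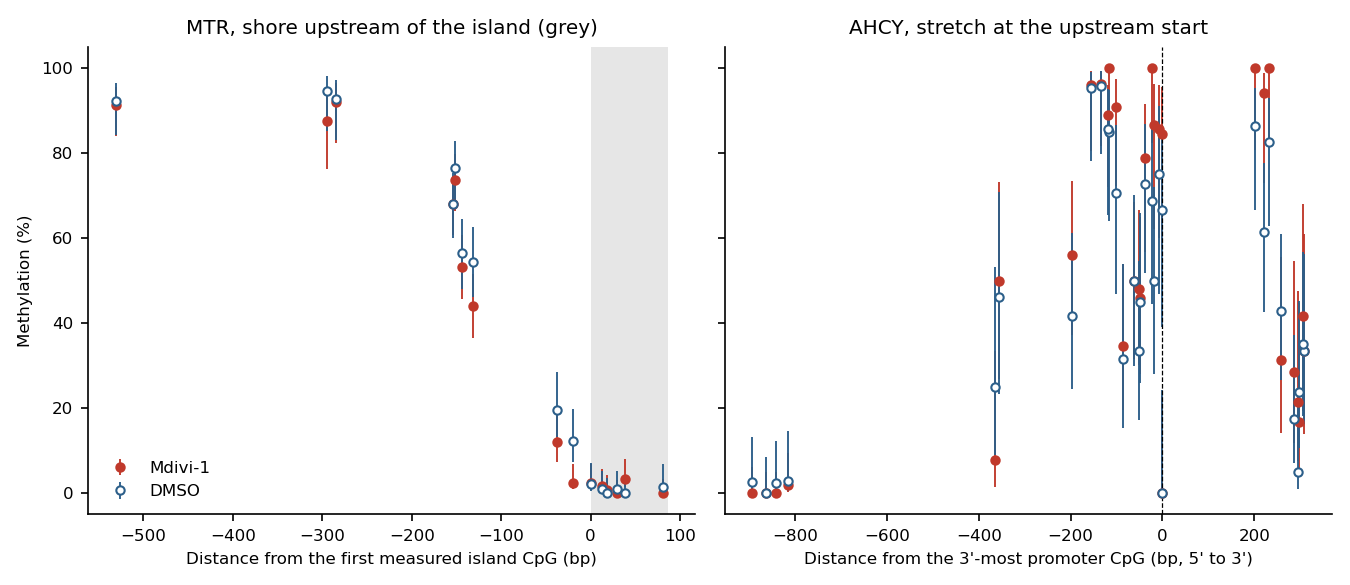
Methylation in percent with 95% Wilson intervals (vertical axis) of single CpGs against distance in bases (horizontal axis), at the shore upstream of the MTR island (left) and at the AHCY upstream start (right), with filled red points for the Mdivi-1 library and open blue points for the DMSO library. All 9 shore CpGs shown at MTR are lower in the Mdivi-1 library, with differences down to -10.6 points. Another 3 annotated shore CpGs farther upstream of MTR, not shown, had 2 higher and 1 lower in the Mdivi-1 library. At AHCY most CpGs near the start are higher in the Mdivi-1 library, with wide intervals.

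MTR, the folate-dependent methionine synthase, lies on chromosome 1 and has an island of 888 bp. The 84 island CpGs averaged 0.882% in the Mdivi-1 library and 1.09% in the DMSO library. Upstream, the shore grades from over 90% to about the level of the island. The 9 shore CpGs from 236957785 to 236958296 averaged 58.2% in the Mdivi-1 library and 63.0% in the DMSO library, a difference of -4.79 points (errors 1.67 and 6.48). In the Mdivi-1 library all 9 were lower, though adjacent CpGs share reads. The wider differences were near the island edge. At MTR position 236958185, 72 of 164 reads were methylated in the Mdivi-1 library (43.9%, 95% Wilson interval 36.5 to 51.6) and 73 of 134 in the DMSO library (54.5%, 46.0 to 62.7), with an exact p of 0.0807. At 236958296, 3 of 125 reads were methylated in the Mdivi-1 library (2.40%, 95% Wilson interval 0.820 to 6.82) and 13 of 106 in the DMSO library (12.3%, 7.31 to 19.9), with an exact p of 0.00378 and an adjusted p of 1. The next CpG, the first of the island, was at 2.42% in the Mdivi-1 library and 1.98% in the DMSO library at 236958316 of MTR.

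The MTR promoter as annotated holds this shore stretch, part of the island and 3 shore CpGs farther upstream (236956645 to 236956719). Those 3 averaged 92.9% in the Mdivi-1 library and 94.0% in the DMSO library, with 2 higher and 1 lower in the Mdivi-1 library. The 32 promoter CpGs averaged 25.7% in the Mdivi-1 library and 27.3% in the DMSO library, a difference of -1.58 points (errors 0.585 and 6.70). It was the lowest difference among the 9 promoters. The rest of the MTR gene past the island was methylated, with 36 CpGs at 86.5% in the Mdivi-1 library and 84.3% in the DMSO library, and 25 of them higher and 11 lower in the Mdivi-1 library. A group of 6 intronic CpGs (236998146 to 236998734) averaged 93.8% in the Mdivi-1 library and 87.8% in the DMSO library, 6.02 points apart (errors 2.33 and 5.37). The gene as a whole averaged 30.01% in the Mdivi-1 library and 29.90% in the DMSO library, with the lower shore and the higher rest of the gene offsetting each other. With reads pooled, the difference was -1.28 points over the gene and -3.50 points in the promoter.

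BHMT, the betaine-dependent enzyme, lies on chromosome 5, has no annotated island and was methylated at its start. Its 26 promoter CpGs averaged 94.5% in the Mdivi-1 library and 92.9% in the DMSO library, 1.63 points apart (errors 1.19 and 5.54), or 0.689 points with reads pooled. At 78407335 in this promoter, 73 of 75 reads were methylated in the Mdivi-1 library (97.3%, 95% Wilson interval 90.8 to 99.3) and 45 of 54 in the DMSO library (83.3%, 71.3 to 91.0), with an exact p of 0.00810 and an adjusted p of 1. The other end of BHMT was less methylated and differed more. The last 5 CpGs (78426785 to 78427001), in the last exon and 3′ UTR, averaged 80.03% in the Mdivi-1 library and 63.22% in the DMSO library, 16.8 points apart (errors 5.85 and 13.6). All 5 were higher in the Mdivi-1 library. The one with the smallest p (78426944) had 24 of 30 reads methylated in the Mdivi-1 library (80%, 95% Wilson interval 62.7 to 90.5) and 14 of 27 in the DMSO library (51.9%, 34.0 to 69.3), with an exact p of 0.0475 and an adjusted p of 1. Each of these 5 CpGs had between 13 and 33 reads in either library, and this last one alone had at least 20 in both.

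CBS, the first enzyme of the route to cysteine, had the most measured CpGs of the 9 genes, 431 on chromosome 21. They averaged 57.4% in the Mdivi-1 library and 57.6% in the DMSO library, a difference of -0.208 points (errors 0.312 and 10.98). Its 60 promoter CpGs averaged 15.6% in the Mdivi-1 library and 14.7% in the DMSO library, 0.832 points apart (errors 0.570 and 10.7). This promoter difference was 7.14 points with reads pooled over CpGs and 0.140 points with a minimum of 20 reads. Of the 60, 9 lie in an intragenic stretch (44488569 to 44489368) at 93.6% in the Mdivi-1 library and 92.9% in the DMSO library. Their mean coverage was 40.7 reads in the Mdivi-1 library and 26.0 reads in the DMSO library, so pooling weights them more in the former. The 48 promoter CpGs in the island below averaged 1.13% in the Mdivi-1 library and 0.606% in the DMSO library. The start of CBS lies in an island of 2365 bp that was partly methylated. The 45 island CpGs nearest the gene body (44494626 to 44494998) averaged 40.7% in the Mdivi-1 library and 42.2% in the DMSO library. The other 134 CpGs of this island averaged 1.61% in the Mdivi-1 library and 1.78% in the DMSO library. The methylated part of this island thus lay at its downstream side in both libraries. The 3 islands inside the gene were methylated: that of 244 bp stood at 81.2% in the Mdivi-1 library and 83.9% in the DMSO library, and those of 411 bp and 325 bp were above 90% in both. At 44495142 in the CBS promoter island, 0 of 35 reads were methylated in the Mdivi-1 library, which allows up to 8.57%, and 5 of 27 in the DMSO library, or 18.5% with a 95% Wilson interval of 8.18 to 36.7 (Fisher's exact p = 0.0125, adjusted p = 1).

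The 2 mitochondrial enzymes had unmethylated starts, and methylated DNA past their islands. SHMT2, which takes the one-carbon unit from serine, lies on chromosome 12. Its island of 483 bp averaged 1.23% in the Mdivi-1 library and 0.881% in the DMSO library over 35 CpGs, and its 48 promoter CpGs averaged 3.19% in the Mdivi-1 library and 2.98% in the DMSO library. The promoter difference, 0.215 points, was -0.242 points with reads pooled. The 27 other CpGs of SHMT2 averaged 72.4% in the Mdivi-1 library and 71.5% in the DMSO library, 0.859 points apart (errors 1.28 and 7.88). MTHFD2, which oxidises the folate-bound unit in the next steps, lies on chromosome 2 apart from MAT2A. Its island of 979 bp averaged 2.28% in the Mdivi-1 library and 1.81% in the DMSO library over 89 CpGs, and its 26 promoter CpGs averaged 8.63% in the Mdivi-1 library and 7.40% in the DMSO library. Past the island, 9 CpGs of MTHFD2 averaged 93.0% in the Mdivi-1 library and 95.1% in the DMSO library. Over all 99 CpGs of MTHFD2 the difference was 0.271 points, but -2.90 points with reads pooled. Mean coverage of the 9 CpGs was 62.8 reads in the Mdivi-1 library and 56.1 reads in the DMSO library. That of the other 90 was 30.8 reads in the Mdivi-1 library and 23.1 reads in the DMSO library. The smallest p in SHMT2 was 0.0763, at an exonic CpG (57625549) with 39 of 44 reads methylated in the Mdivi-1 library and 30 of 30 in the DMSO library. In MTHFD2 it was 0.0632, at an intronic CpG (74433039) with 66 of 73 reads methylated in the Mdivi-1 library and 69 of 70 in the DMSO library (both Fisher's exact tests, adjusted p = 1).

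Across the 9 promoters, 7 were higher and 2 lower in the Mdivi-1 library, with a median difference of 0.832 points. Over all 23511 promoters of at least 5 CpGs the median was 0.203 points and 58.3% were higher. All 9 members lay inside the central 90% of promoters, between -2.81 and 3.83 points, as means over CpGs. Among promoters at a mean level of 5 to 20%, the central 90% ran from -2.17 to 2.50 points, and MAT1A at 3.43 points was outside it. Every other member was inside the central 90% of promoters at its own level. With reads pooled over CpGs, CBS at 7.14 points and MTR at -3.50 points were beyond the limits for all promoters. Those limits were not recomputed for pooled reads. The pooled CBS value mixes nearly unmethylated island CpGs with methylated CpGs of unequal depth in the libraries, as given above. A rule of size was met by a region with 5 or more CpGs whose mean differed by 10 points or more and of whose CpGs 80% or more had the same direction. None of the 9 promoters met it, and 0.293% of all promoters did. Outside the promoters, 6 genes were higher and 3 lower in the Mdivi-1 library, with a median of 0.635 points beside 0.400 points for all gene bodies. None of the 9 gene bodies met the rule of size, against 0.209% of all 24364.

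**Figure D4:**
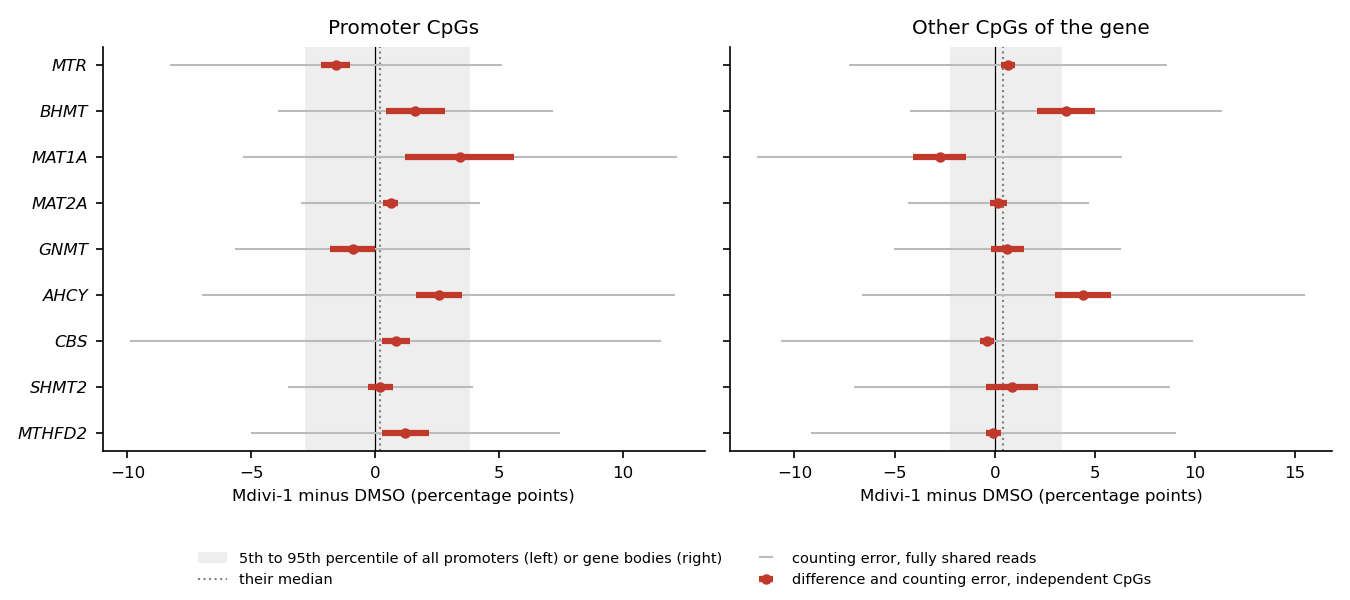
Difference between the Mdivi-1 and DMSO libraries in percentage points (horizontal axis) for the promoter (left) and the other CpGs (right) of each gene. Thick bars give the counting error for independent CpGs, and thin bars that for fully shared reads at the mean level of the region. Grey gives the 5th to 95th percentile of all promoters or gene bodies. The 9 promoters lie between -1.58 and 3.43 points, and AHCY, BHMT and MAT1A are the gene bodies outside the grey band.

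Among the island classes, the widest mean difference was in CpGs of no such class. The 183 member CpGs that belong to no island, shore or shelf averaged 71.4% in the Mdivi-1 library and 68.9% in the DMSO library, 2.50 points apart (errors 0.594 and 9.80), beside 0.667 points for all such CpGs of the table. Of these, 103 were higher and 64 lower in the Mdivi-1 library. Most of that class belongs to AHCY, BHMT, MAT1A and the far part of MTR described above. The 623 island CpGs averaged 20.05% in the Mdivi-1 library and 20.15% in the DMSO library. The 204 shore CpGs averaged 60.1% in both libraries, and the 140 shelf CpGs averaged 92.9% in the Mdivi-1 library and 92.0% in the DMSO library. Among gene regions, the 143 upstream CpGs averaged 32.3% in the Mdivi-1 library and 30.6% in the DMSO library, the 142 exonic CpGs 76.5% in the Mdivi-1 library and 75.7% in the DMSO library, and the 578 intronic CpGs 51.0% in both.

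Along the chromosome, the 9 genes filled 46 windows of 1 kb with at least 5 CpGs. Of these 27 were higher and 19 lower in the Mdivi-1 library, with a median of 0.283 points. Of the 46, 1 passed the rule of size, the window of the AHCY upstream start, or 2.17%, against 0.956% of all windows. Among all windows at a mean level of 20 to 80%, where larger differences are possible, 2.19% passed, and 7 member windows were at such a level. The BHMT 3′ end is divided by the window grid and passed the rule only in windows of 2000 bp.

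**Figure D5:**
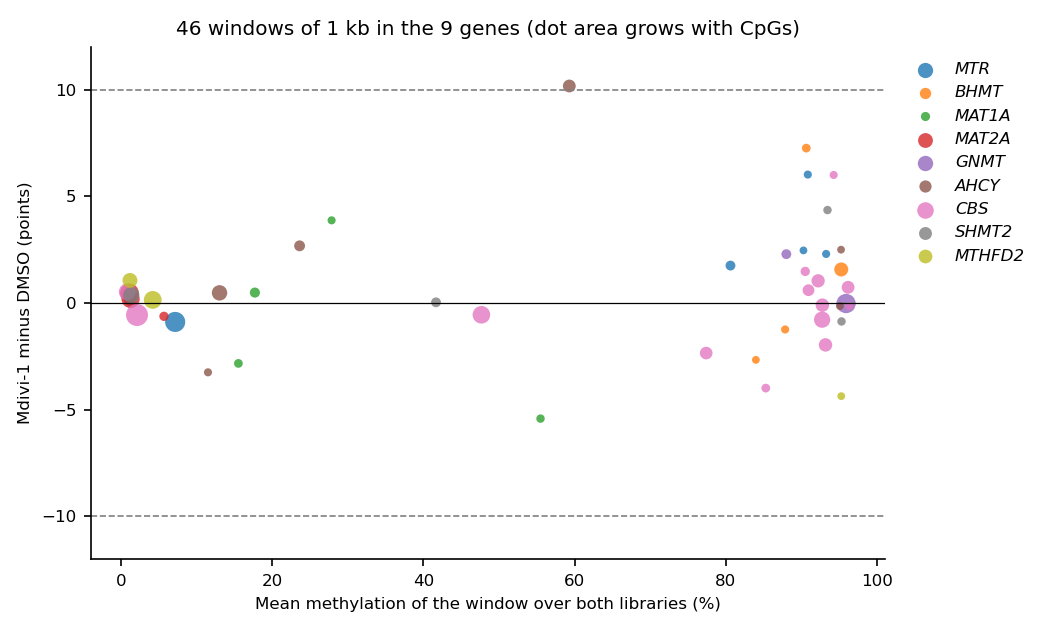
Difference between the Mdivi-1 and DMSO libraries in percentage points (vertical axis) against the mean methylation over both libraries in percent (horizontal axis) for 46 windows of 1 kb, coloured by gene, with dot area growing with the number of CpGs. Dashed lines mark the 10 points of the rule of size, and 1 AHCY window at 10.2 points lies beyond them.

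Of 39 further genes of folate, methionine and linked amino acid metabolism, 38 had at least 5 promoter CpGs. In the Mdivi-1 library 22 of these promoters were higher and 16 lower, with a median of 0.223 points beside 0.203 points for all promoters, and none of the 38 passed the rule of size. The largest gain was at MTHFS, which returns folinic acid to the folate pool, at 84.2% in the Mdivi-1 library and 78.8% in the DMSO library, 5.44 points apart (errors 2.36 and 9.83). AMT, of the glycine cleavage system, stood at 78.5% in the Mdivi-1 library and 74.9% in the DMSO library. SLC19A1, the reduced folate carrier, stood at 53.6% in the Mdivi-1 library and 50.6% in the DMSO library. The largest loss was at BHMT2, the neighbour and relative of BHMT, at 76.5% in the Mdivi-1 library and 80.6% in the DMSO library, a difference of -4.16 points (errors 2.33 and 9.46). ALDH1L1, which removes formyl groups from folate, and CTH, which follows CBS, were at 6.28% and 1.83% in the Mdivi-1 library and at 7.43% and 2.71% in the DMSO library. In 16 of the 38 the promoter was under 10% in both libraries, and in 1, DMGDH, it was over 80% in both.

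The label of the cell line could be read only through methylation, since no RNA was used here. Among sympathetic neuroblast genes, the promoters of HAND2, GATA3, ISL1 and DBH were under 2% methylated in both libraries. The promoter of TH stood at 53.4% in the Mdivi-1 library and 52.3% in the DMSO library. Of genes of other lineages, APOA1 stood at 64.1% in the Mdivi-1 library and 64.0% in the DMSO library, whereas KRT5 was at 5.27% in the Mdivi-1 library and 4.12% in the DMSO library, so low promoter methylation alone does not mark this cell type.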

How the data were processed

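Methyl-capture bisulfite sequencing of SH-SY5Y DNA gave 1 library per condition. Per the labels' protocols the SureSelectXT Methyl-Seq kit and a NovaSeq instrument were used, and per the submitters' processing notes reads were aligned with BSMAP to hg19. For 2773807 positions the authors deposited the methylated fraction, the coverage (taken as estimated counts, some not whole), a difference score and annotation. The deposited DMSO fractions matched whole reads at the deposited coverage for 33.3% of positions, within 1e-06. They matched after scaling by 1.23, the median coverage of the Mdivi-1 library (37 reads) over that of the DMSO library (30 reads). That scaling was inferred from the values. Whole reads were recovered from it, and 18552 positions (0.669%) were left out, 3 of them members'. The minimum was 10 reads per CpG in each library. Levels are means over CpGs. The samples were not paired, and labels name no batch. The members, lists and tests were chosen with earlier results of these data known. Named were all 9 genes, the CpG of smallest p in each and the 3 largest gains and losses among the further promoters; the stretches and other CpGs were chosen after their values were seen. Alternatives changed the coverage minimum, weighting, fractions, centring, very deep CpGs, shared annotation and window size. Scripts were tested on simulated data, and run in Python 3.11.15 with SciPy 1.17.1, pandas 2.3.3, NumPy 2.4.6, Matplotlib 3.10.9 and Numba 0.67.0.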

Additional observations from a re-analysis of the deposited data

How the results depend on the processing

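The median difference over all CpGs of the 9 genes, 0.271 points, was -0.494 with reads pooled over CpGs and -0.190 with the mean difference of all CpGs (0.460 points) subtracted. Under both, 3 genes were higher and 6 lower in the Mdivi-1 library, where 7 were higher and 2 lower as reported. The sign of this median depends on these settings. Subtracting that mean took the median of the 38 further promoters to -0.237, with 13 higher and 25 lower in the Mdivi-1 library. The count of windows past the rule of size, 1 as reported, was 0 with at least 20 reads and 2 in windows of 2000 bp. Member CpG calls were 0 under every alternative run. The promoter median kept its sign under every alternative, and 8 of 9 promoters, 6 of 9 gene bodies and 5 of 9 whole genes had one sign over the alternatives other than centring. Leaving out annotation shared with another gene left no promoter value for MAT2A and GNMT. No paired analysis was possible because each condition has 1 library. Depth limits the AHCY and BHMT stretches most, with about 20 reads per CpG. Read placement among similar sequences could not be checked.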
